A study of Mus musculus with 47 samples.

Results

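The 8 genes of the troponin complex with slow, fast or cardiac names (Tnnt1, Tnnt2, Tnnt3, Tnni1, Tnni2, Tnni3, Tnnc1 and Tnnc2) were examined in RNA-seq of C2C12 cells, an established line of mouse myoblasts that fuse into multinucleated myotubes when serum is withdrawn. They were chosen by symbol, 8 of the 45706 genes in the deposited tables, and their transcripts were summed per gene. The line C2C12 iMyoD1 is a polyclonal population that carries doxycycline (dox)-inducible Halo-MyoD1 on top of endogenous MyoD1. Whole iMyoD1 cultures were collected in growth medium (0 h, after 24 h of dox or vehicle) and after 24, 48 and 120 h of differentiation, with dox or vehicle from the onset. Cultures of 120 h were also passed through a 40 µm strainer into a flow-through, the myoblast-enriched fraction, and a retentate, the myotube-enriched fraction. The lines C2C12 iCdh23 and C2C12 iMcam, labelled as inducible for the adhesion genes Cdh23 and Mcam, were collected whole at 48 h with dox or vehicle. Each of the 16 groups held 3 biological replicates, except the myoblast-enriched fraction with dox, which held 2 (replicates 2 and 3), for 47 libraries in all. No wild-type C2C12 library treated with dox was analysed here.

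Troponin sits on the thin filament of striated muscle and switches contraction on when calcium rises. Troponin T (TnT) ties the complex to tropomyosin, troponin I (TnI) holds the filament inactive, and troponin C (TnC) binds calcium and releases TnI. Separate genes encode slow skeletal (Tnnt1, Tnni1), cardiac (Tnnt2, Tnni3) and fast skeletal (Tnnt3, Tnni2, Tnnc2) forms, Tnnc1 serves both slow skeletal and cardiac muscle, and cardiac TnT is also made in developing skeletal muscle.

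The genes lie as TnI and TnT neighbours on the same strand. On chromosome 1, Tnni1 (chr1:135779434-135810989, plus strand) and Tnnt2 (chr1:135836354-135852260, plus strand) were 25364 bases apart with Lad1 between them. On chromosome 7, Tnni3 (chr7:4518305-4524229) and Tnnt1 (chr7:4504570-4516382), both on the minus strand, were 1922 bases apart with no gene between, and Tnni2 (chr7:142441808-142444410) and Tnnt3 (chr7:142498836-142516009), both on the plus strand, were 54425 bases apart with Lsp1 between. The TnC genes stood alone, Tnnc1 on chromosome 14 (chr14:31208312-31211729, plus strand) and Tnnc2 on chromosome 2 (chr2:164777161-164779967, minus strand). All positions are on GRCm38, the assembly that the labels call mm10. The spans of Tnnt3, Tnnc1 and Tnnc2 overlap that of a gene on the other strand (Prr33, Nisch and Ube2c). Whether they share exon sequence was not examined. Reads from any shared exon sequence cannot be told apart unless strand was used in the counting, which is not given in the sources used here. Tnni3 overlaps Dnaaf3 on its own strand, where counting by strand would not separate any shared reads.

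TnT is also varied by splicing, and 10 forms of TnT exons changed their share among a gene's transcripts by over 20 points between groups. Forms of 16 and 19 bases of the same Tnnt1 exon were counted apart. The 4 printed here, chosen after their values were seen, are those described at most length under exon use. Capitals mark the exon and lower case the 15 bases joined to it on each side in the spliced transcript, written 5′ to 3′ (GENCODE transcripts, GRCm38). They are a 33-base exon of Tnnt1 (chr7:4513581-4513613, minus strand), a 30-base exon of Tnnt2 (chr1:135843785-135843814, plus strand), and exons of 15 and 39 bases of Tnnt3 (chr7:142505516-142505530 and chr7:142507750-142507788, plus strand).
Tnnt1 33-base exon: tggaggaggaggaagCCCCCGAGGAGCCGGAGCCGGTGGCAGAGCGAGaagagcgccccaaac
Tnnt2 30-base exon: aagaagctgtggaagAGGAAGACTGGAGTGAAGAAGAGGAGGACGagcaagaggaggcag
Tnnt3 15-base exon: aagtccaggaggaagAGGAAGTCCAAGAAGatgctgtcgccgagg
Tnnt3 39-base exon: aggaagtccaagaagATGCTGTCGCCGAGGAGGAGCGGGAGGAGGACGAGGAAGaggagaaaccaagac

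The 250 bases before the start of 4 of the genes are shown, as RefSeq gives them on GRCm38.p6, 5′ to 3′ on the gene's strand. Capitals mark matches on either strand to CANNTG (the E-box letters that MyoD-family factors bind, of which CAGCTG is one form) and to CATTCC (the MCAT element). RefSeq promoters were matched for 6 of the 8 genes, and the 4 printed are those with the most CANNTG matches. Tnnt2 (chr1:135836084-135836333) held 4 CANNTG matches, 2 of them CAGCTG at 223 and 157 bases before the start, and 1 CATTCC at 27 bases before it, but the Ensembl transcript that took most of its counts starts 4541 bases downstream. Tnni1 (chr1:135799171-135799420) held 4 CANNTG matches, with CAGCTG at 68 bases before the start. Tnnc1 (chr14:31208062-31208311) held 2 CANNTG matches and CATTCC on the other strand, and Tnnc2 (chr2:164779735-164779984, minus strand) held 2 CANNTG matches. Tnnt1 and Tnni3 held 1 CANNTG match each. For comparison, promoters with at least 1 match were counted, and those with several were not counted apart. Of 32851 promoters of the same length, 66.2% held CANNTG, 13% CAGCTG and 12.6% CATTCC. The MEF2 box was in 2.92% of them and matched none of the 6 troponin windows.
Tnnt2 promoter: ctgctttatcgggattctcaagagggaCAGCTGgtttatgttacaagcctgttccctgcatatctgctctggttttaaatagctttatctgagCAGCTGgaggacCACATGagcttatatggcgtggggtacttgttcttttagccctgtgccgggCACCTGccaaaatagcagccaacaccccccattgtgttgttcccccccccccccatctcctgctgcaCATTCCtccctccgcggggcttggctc
Tnni1 promoter: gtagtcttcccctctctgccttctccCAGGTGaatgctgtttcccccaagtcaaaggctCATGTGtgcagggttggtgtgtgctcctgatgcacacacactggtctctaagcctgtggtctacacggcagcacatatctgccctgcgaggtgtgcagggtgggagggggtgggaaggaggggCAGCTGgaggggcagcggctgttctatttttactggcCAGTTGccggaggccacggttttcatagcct
Tnnc1 promoter: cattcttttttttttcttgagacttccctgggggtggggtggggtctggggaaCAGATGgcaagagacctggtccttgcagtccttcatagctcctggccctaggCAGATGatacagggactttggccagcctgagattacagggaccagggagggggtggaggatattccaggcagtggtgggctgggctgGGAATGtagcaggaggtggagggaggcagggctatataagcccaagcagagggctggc
Tnnc2 promoter: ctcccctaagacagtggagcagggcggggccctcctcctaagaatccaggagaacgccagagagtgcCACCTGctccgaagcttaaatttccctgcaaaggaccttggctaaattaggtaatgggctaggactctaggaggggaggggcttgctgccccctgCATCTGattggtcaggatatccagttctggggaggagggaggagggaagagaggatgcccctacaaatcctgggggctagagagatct

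Estimated counts per library summed to between 15066338 and 50950674 (median 22837926). Levels are given as CPM, each count relative to its library's total after TMM scaling, and levels of different genes are compared only per transcript length, as TPM (each count divided by its transcript's length, then scaled to the same sum in every library). In edgeR's quasi-likelihood test, a gene is called where it changed over 2-fold with an adjusted p below 0.05. The 0 and 24 h libraries came in another deposited table than the 48 and 120 h whole cultures, and all but the 0 and 24 h libraries are labelled RNAseq_v2, so a change from 24 to 48 h and a change of table cannot be told apart. The fractions and the iCdh23 and iMcam libraries shared the third table. The paper measured induction as Halo-MyoD1 fluorescence and found positive nuclei in iMyoD1 with dox. Whether reads of the tagged transgene were counted under Myod1 is not given in the sources used here. At RNA level, Myod1 was not called higher with dox in any whole iMyoD1 culture. It was 178 CPM without and 188 CPM with dox at 0 h (log2 fold change 0.09, adjusted p = 0.201), 135 and 117 CPM at 24 h (−0.23, adjusted p = 0.00414, though 129.7 and 133 CPM without TMM factors) and 388 and 306 CPM at 48 h (−0.36, adjusted p = 0.000446). It was called lower with dox at 120 h (279.9 against 92.0 CPM, log2 fold change −1.62, adjusted p = 1.32e-05), in iCdh23 (−2.59) and in iMcam (−1.63). Cdh23 was 389 CPM without and 486 CPM with dox in iCdh23 (log2 fold change 0.32, adjusted p = 0.102), and Mcam rose from 18.1 to 71.3 CPM in iMcam (2.02, adjusted p = 0.000123). In bulk samples, fewer cells of a type and less RNA per cell cannot be told apart.

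Undifferentiated myoblasts already carried some troponin RNA. Per length it came mainly from cardiac and slow genes, with mean levels of 58.6 TPM for Tnnt2, 16.7 TPM for Tnnc1 and 11.8 TPM for Tnnt1, and at most 1.19 TPM for each of the other 5. At 0 h without dox, Tnnt2 stood at 34.4, 34.4 and 32.3 CPM in the 3 libraries, Tnnc1 at 6.10, 6.5 and 5.99 CPM, and Tnnt1 at 5.2, 5.25 and 4.69 CPM. The other genes were at or below 0.700 CPM in each of these libraries. Per length, Tnnt2 made up 82.8% ± 0.31 (SD, n = 3) of TnT and Tnnc1 96.5% ± 2.0 of TnC, while TnI of all kinds reached only 0.0476 ± 0.0096 molecules per TnT molecule. The 8 genes together took 46.8 CPM ± 2.01.

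After 24 h without serum Tnnt2 was lower. Its 3 libraries read 2.44, 3.23 and 2.25 CPM, 12.4-fold below 0 h without overlap (log2 fold change −3.64 ± 0.13 SE, edgeR adjusted p = 1.06e-11). Tnnt1 read 1.58, 3.05 and 2.98 CPM (−0.94 ± 0.22, adjusted p = 0.00166), and Tnnc1 read 4.14, 5.14 and 5.64 CPM (−0.28, adjusted p = 0.11). Tnni1 (0.52, adjusted p = 0.196) and Tnni2 (−0.09, adjusted p = 0.887) missed the threshold, and Tnnt3, Tnni3 and Tnnc2 were not tested. Tnnt2 was thus 1 of 5 tested members called lower, a share near the 16.6% of all genes tested that were called lower, and with library 2 or 3 of 24 h left out Tnnt1 was called too. With dox the same step lowered Tnnt2 (−2.40) and Tnnt1 (−1.16), and the calls of 4 members lower stood beside 11.6% of all genes. The calls of 2 members higher stood beside 5.19% of all genes. The other calls of that step rested on few counts: Tnni3 (−1.44) kept its call in every alternative run, whereas Tnnc2 (−1.0), Tnnt3 (1.19) and Tnni1 (1.13) each lost the call or its significance in DESeq2 and when single libraries were left out (log2 fold changes between −1.05 and −0.79 for Tnnc2, down to 0.96 for Tnnt3 and 0.93 for Tnni1). Dnaaf3, which overlaps Tnni3 on its own strand, was 9.81 CPM at 0 h and 5.67 CPM at 24 h with dox. Its part in the Tnni3 result was not tested. Tnni2 (−0.85, adjusted p = 0.0342) and Tnnc1 (0.14, adjusted p = 0.373) were not called.

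**Figure D1:**
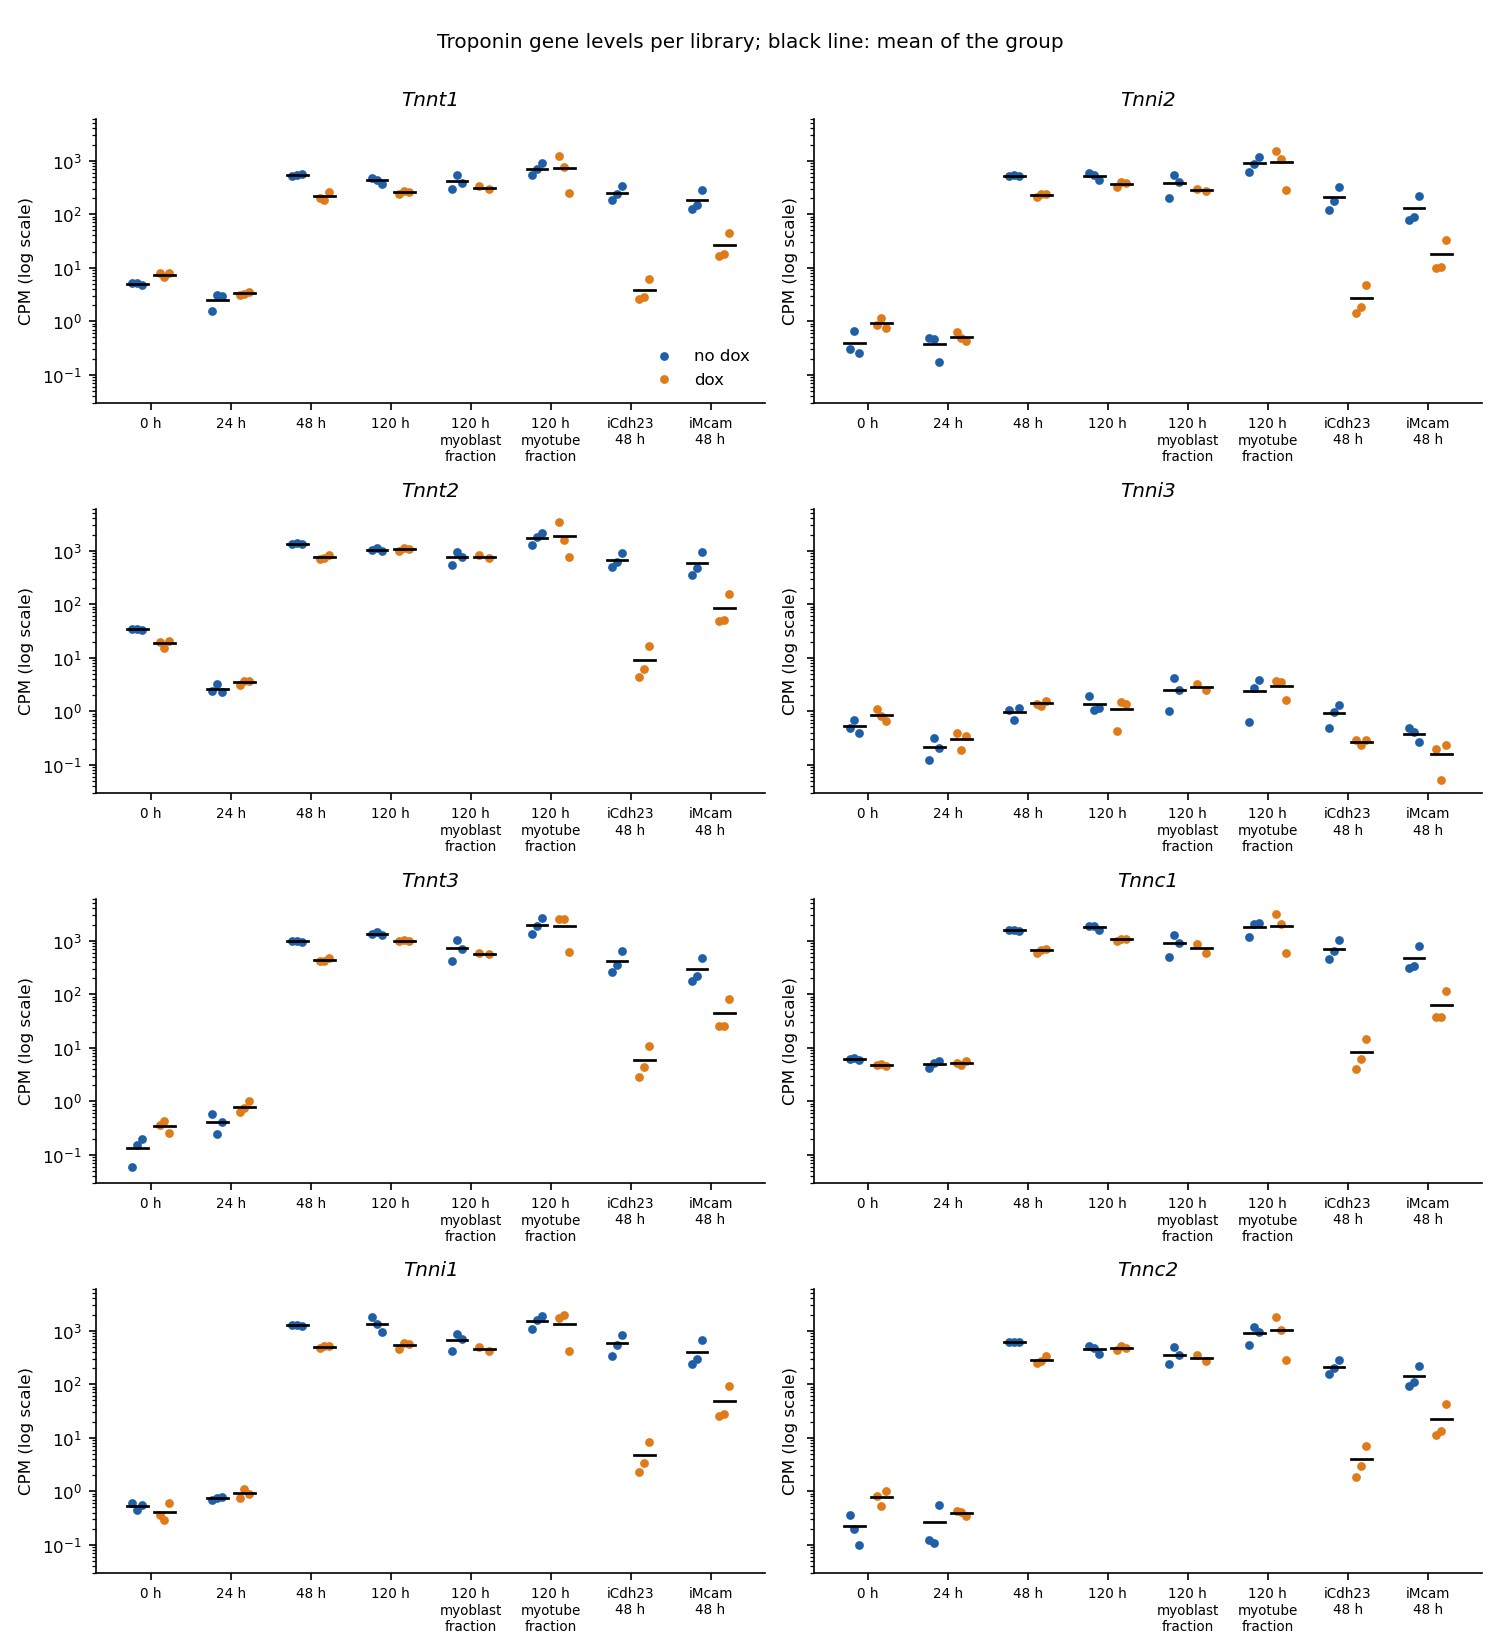
Level of each troponin gene (log10 axis of CPM, 1 panel a gene) in every library of the 16 groups, blue without dox and orange with dox. Tnni3 stays under 5 CPM throughout, while the other 7 genes stand under 35 CPM at 0 and 24 h and at 186 CPM or more in the whole iMyoD1 cultures of 48 and 120 h.

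Between 24 and 48 h the whole family came on. Without dox, all 8 members were called higher, beside 19.3% of all genes tested. Fast Tnnt3 went from 0.569, 0.248 and 0.415 CPM to 986, 995 and 958 CPM (log2 fold change 11.23 ± 0.12). Fast Tnnc2 rose by 11.12 ± 0.18, slow Tnni1 by 10.72 ± 0.10, fast Tnni2 by 10.46 ± 0.13, cardiac Tnnt2 by 9.01 ± 0.11, Tnnc1 by 8.29 ± 0.11 and slow Tnnt1 by 7.72 ± 0.14 (adjusted p at most 1.65e-14). For Tnnc2 the size rests on 24 h replicate 3, which held most of that group's counts: without it the value is 12.32. Cardiac Tnni3 rose least, by 2.14 ± 0.43 (adjusted p = 0.000553), to 1.07, 0.696 and 1.16 CPM. With dox, all 8 were called higher too, beside 17% of all genes, by 5.99 (Tnnt1) to 9.52 (Tnnc2) and by 2.11 for Tnni3. Together the 8 genes held 6836 CPM ± 112 at 48 h without dox, 0.684% of all counts.

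From 48 to 120 h without dox no member passed both criteria, against 29.8% of all genes called in either direction, although edgeR found 4 of 8 at an adjusted p under 0.05, where 67.1% of all genes passed, and DESeq2 likewise called none past 2-fold. Fast Tnnt3 was higher, at 1357, 1428 and 1287 CPM (log2 fold change 0.49, adjusted p = 0.000682). Cardiac Tnnt2 was lower, at 1015, 1121 and 979.9 CPM (−0.37, adjusted p = 0.00492). Tnnc2 (−0.41, adjusted p = 0.0135) and Tnnt1 (−0.32, adjusted p = 0.0236) were also lower, but the significance of Tnnt1 was lost without any 1 of 4 of the 6 libraries and that of Tnnc2 without 48 h replicate 3 (−0.40). The other 4, Tnni3 (0.49, adjusted p = 0.257), Tnnc1 (0.21, adjusted p = 0.073), Tnni1 (0.10, adjusted p = 0.663) and Tnni2 (0.03, adjusted p = 0.816), missed the threshold. With dox, 5 of 8 members were higher at 120 h than at 48 h at an adjusted p under 0.05, beside 34.9% of all genes. Tnnt3 was the member called higher (1.19 ± 0.09, adjusted p = 7.53e-08), with 15.1% of all genes called higher, and Tnnc2 (0.75), Tnni2 (0.72), Tnnc1 (0.69) and Tnnt2 (0.52) were higher by less than 2-fold with adjusted p of at most 0.000224. Tnnt1 (0.25, adjusted p = 0.0678), Tnni1 (0.12, adjusted p = 0.339) and Tnni3 (−0.34, adjusted p = 0.482) missed the threshold.

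Dox in growth medium left the abundant cardiac TnT lower and slow TnT higher. Tnnt2 read 19.5, 15.3 and 20.5 CPM with dox, below all 3 libraries without it (log2 fold change −0.86 ± 0.10, edgeR adjusted p = 1.17e-05), and Tnnt1 read 7.81, 6.68 and 7.84 CPM, above all 3 (0.57 ± 0.14, adjusted p = 0.00645). Neither passed 2-fold, so no member was called lower, beside 1.36% of all genes. The 2 members called higher, beside 2.91% of all genes, were fast genes with few counts. Tnnc2 held 20, 11 and 20 counts with dox against 6, 4 and 2 (1.85 ± 0.50, adjusted p = 0.00932), and this call was lost without no-dox replicate 3 (1.49, adjusted p = 0.0557). Tnni2 held 21, 24 and 15 counts against 5, 13 and 5 (1.18 ± 0.43, adjusted p = 0.0421), a call lost in DESeq2 (adjusted p = 0.146) and without any 1 of 5 of the 6 libraries (0.92 to 1.3). Ube2c, which overlaps Tnnc2 on the other strand, was 107 CPM without and 96.4 CPM with dox. Tnni3 (0.71, adjusted p = 0.164), Tnnc1 (−0.37, adjusted p = 0.0614) and Tnni1 (−0.34, adjusted p = 0.565) missed the threshold, and Tnnt3, with 1 to 9 counts a library, was not tested. The TnT share of Tnnt2 was 64.4% ± 2.5 with dox against 82.8% without.

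At 24 h none of 7 tested members was called by edgeR in either direction with dox, beside 13.1% of all genes, 1 had an unadjusted p under 0.05, beside 66.4% of all genes, and DESeq2 called none. That member was Tnnt3, at 0.618, 0.740 and 1.02 CPM with dox against 0.569, 0.248 and 0.415 CPM (log2 fold change 0.95 ± 0.38, adjusted p = 0.0465), and its significance was lost in DESeq2 (adjusted p = 0.145) and without any 1 of 5 of the 6 libraries (0.69 to 1.1). The other 6 were Tnnc2 (0.50), Tnni2 (0.42), Tnnt2 (0.37), Tnnt1 (0.35), Tnni1 (0.25) and Tnnc1 (0.04), with adjusted p from 0.0825 to 0.815, and Tnni3 was not tested. Without no-dox replicate 3, which held 16 counts against 3 and 3 in the others, Tnnc2 was called higher (1.71, against 0.50 with it).

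At 48 h dox lowered the family apart from Tnni3. Among the 7 abundant genes the log2 fold changes ran from −1.35 for Tnni1 and −1.34 for Tnnt1 to −0.87 for Tnnt2. Of 8 members 6 were called lower, with 8.46% of all genes called lower, and none higher. The members' median log2 fold change was −1.20, against 0.01 over all genes tested.

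Among the TnT genes, slow Tnnt1 read 525, 539 and 558 CPM without dox and 201, 186 and 259.7 CPM with it (log2 fold change −1.34 ± 0.12, adjusted p = 3.98e-06). Fast Tnnt3 fell from 986, 995 and 958 CPM to 419, 419 and 483 CPM (−1.17 ± 0.08, adjusted p = 6.56e-07). Cardiac Tnnt2 went from 1352, 1402 and 1324 CPM to 696, 734 and 826 CPM, to 54.8% of its control (−0.87 ± 0.08, adjusted p = 7.96e-06), which is short of 2-fold. None of these groups overlapped. In TnI, slow Tnni1 fell from 1285, 1283 and 1228 CPM to 465, 526 and 517 CPM, to 39.3% (−1.35 ± 0.07, adjusted p = 1.39e-07), and fast Tnni2 fell from 524, 537 and 506 CPM to 207, 235 and 233 CPM (−1.23 ± 0.07, adjusted p = 1.94e-07). Cardiac Tnni3 read 1.37, 1.27 and 1.57 CPM with dox (0.49 ± 0.28, adjusted p = 0.165). In TnC, Tnnc1 fell from 1587, 1566 and 1523 CPM to 580.1, 680.0 and 709 CPM (−1.26 ± 0.09, adjusted p = 6.51e-07), and fast Tnnc2 fell from 614, 603 and 611 CPM to 252, 276 and 332 CPM (−1.1 ± 0.10, adjusted p = 4.8e-06). The control libraries of each of these 7 genes lay within 1.02-fold to 1.06-fold of each other, far closer than the difference.

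Markers of other states moved at the same time. The summed level of 6 myotube markers (Myog, Mymk, Ckm, Ttn, Des and Myh3) was 7340 to 8093 CPM without dox and 3446 to 3552 CPM with it, 4 of the 6 called lower. The summed level of 6 markers of proliferating myoblasts (Pax7, Myf5, Mki67, Top2a, Ccnb1 and Cdk1) was 1008 to 1024 CPM without and 397 to 445 CPM with dox, 4 of the 6 called lower. Fibroblast markers (Pdgfra, Col1a1, Dcn and Lum) summed to 976 to 1078 CPM without and 249 to 275 CPM with dox, of which 1 of 4, Col1a1, was called lower, and smooth muscle markers (Myh11, Smtn, Cnn1 and Acta2) summed to 3670.1 to 4095 CPM without and 2274 to 2504 CPM with dox, of which 1 of 3 tested was called higher, beside 5.93% of all genes. The part of these changes in the troponin result was not tested.

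**Figure D2:**
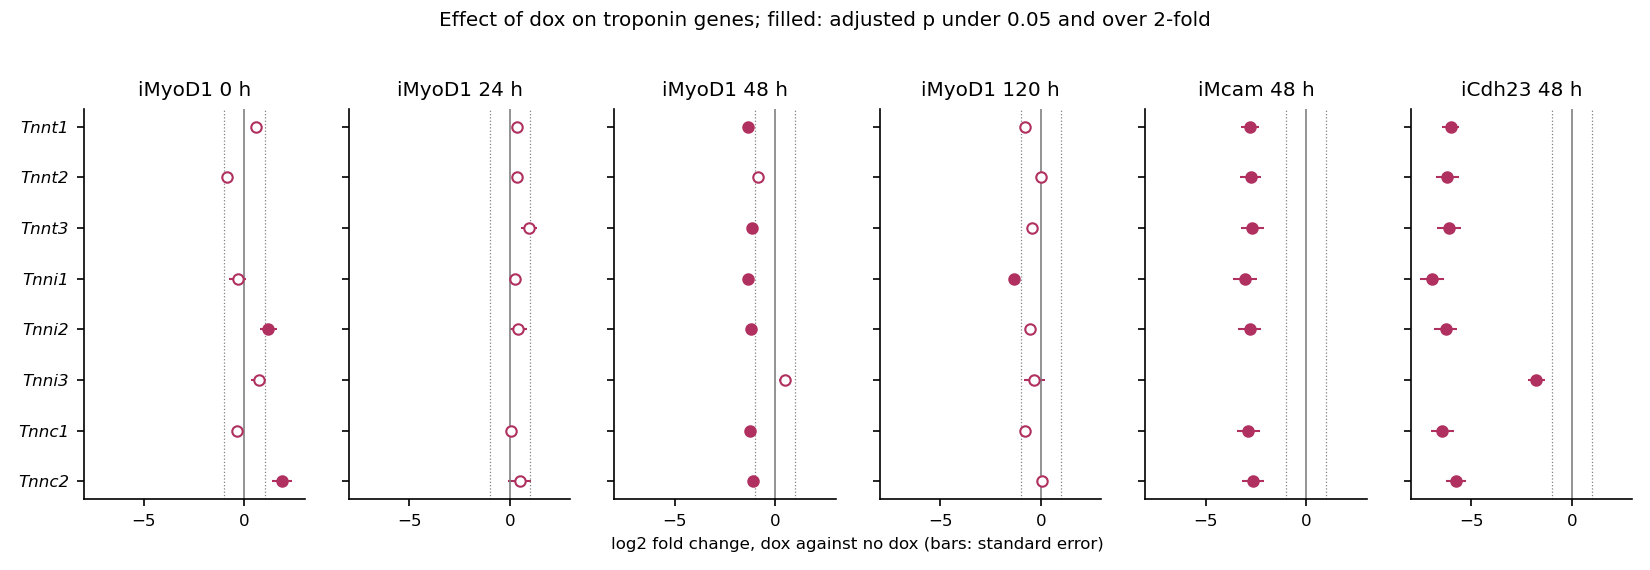
Log2 fold change of each troponin gene, dox against no dox, with its standard error, in whole cultures of iMyoD1 at 4 times and of iMcam and iCdh23 at 48 h. Filled points pass an adjusted p under 0.05 and 2-fold (dotted lines): 6 of 8 genes at 48 h in iMyoD1, 1 of 8 at 120 h, 7 of 7 in iMcam and 8 of 8 in iCdh23.

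At 120 h slow Tnni1 was the member still called lower with dox, 1 of 8 beside 8.8% of all genes, and 5 of 8 were lower at an adjusted p under 0.05, beside 23.7% of all genes. Tnni1 read 1776, 1314 and 930.2 CPM without dox and 458, 592 and 573 CPM with it (log2 fold change −1.32 ± 0.21, adjusted p = 0.000848). Its control libraries spread 1.91-fold, the widest of the 7 abundant genes there, and still did not overlap those with dox. The 3 control libraries stood in the same order for Tnni1, Tnnt1, Tnni2, Tnnc1 and Tnnc2, which is also the order of their median relative transcript length over 5383 genes (100%, 99.6% and 99.4%), and the part of this in the dox results was not tested. Tnnt1 read 478, 443 and 363 CPM against 237, 268 and 258 CPM with dox (−0.76 ± 0.11, adjusted p = 0.000564), and Tnnc1 read 1883, 1846 and 1597 CPM against 992, 1079 and 1091 CPM (−0.77 ± 0.09, adjusted p = 0.000193). These 3 are the slow and slow/cardiac genes.

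Of the fast genes, Tnni2 read 599.6, 551 and 433 CPM without and 318, 406 and 384 CPM with dox (−0.53 ± 0.14, adjusted p = 0.0113), and Tnnt3 read 1357, 1428 and 1287 CPM without and 964, 1024 and 1005 CPM with dox (−0.46 ± 0.08, adjusted p = 0.00159). Fast Tnnc2 read 523, 469.7 and 367 CPM without and 437, 518 and 478 CPM with dox (0.06 ± 0.13, adjusted p = 0.727). Cardiac Tnnt2 likewise read 1015, 1121 and 979.9 CPM without and 999.6, 1129.6 and 1092 CPM with dox (0.04 ± 0.09, adjusted p = 0.773). For the latter pair the groups overlapped, as they did for Tnni3 (−0.33 ± 0.52, adjusted p = 0.639).

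Whether the dox effect itself changed from 48 to 120 h was tested as an interaction in edgeR. It was smaller at 120 h for 6 of 8 members, beside 34.1% of all genes that differed in either direction at an adjusted p under 0.05. The difference of the log2 fold changes was 1.17 ± 0.18 for Tnnc2, 0.90 ± 0.13 for Tnnt2, 0.71 ± 0.11 for Tnnt3, 0.70 ± 0.16 for Tnni2, 0.58 ± 0.18 for Tnnt1 and 0.50 ± 0.13 for Tnnc1 (adjusted p from 0.000101 to 0.0221). For Tnnt1 it was lost without 48 h no-dox replicate 3 (0.55), 48 h dox replicate 2 (0.46) or 120 h dox replicate 2 (0.52). For Tnni1 the difference was 0.03 ± 0.24 (adjusted p = 0.953) and for Tnni3 −0.82 ± 0.61 (adjusted p = 0.327). The proliferation markers lay the other way here, at 259 to 293 CPM without and 483 to 553 CPM with dox, while the myotube markers summed to 11532 to 13867 CPM without and 8649 to 9860 CPM with dox, and their part was not tested.

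The balance of slow, fast and cardiac forms was followed per length, library by library, which sets aside a common change in the amount of muscle RNA. At 48 h without dox TnT was 44.3% Tnnt2, 34.1% Tnnt3 and 21.6% Tnnt1, TnI was 63.5% Tnni1, 36.4% Tnni2 and 0.0667% Tnni3, and TnC was 71.4% Tnnc1. By 120 h Tnnt3 had become the largest TnT, at 49.0% ± 1.3, with Tnnt2 at 33.8% ± 0.66 and Tnnt1 at 17.2% ± 1.5. With dox at 120 h the cardiac share was 41.7% ± 0.93 and Tnnt1 12.7% ± 0.075. Slow Tnni1 was 63.4% ± 4.0 of TnI without and 50% ± 0.48 with dox, and Tnnc1 was 79.3% ± 1.6 of TnC without and 68.3% ± 1.1 with dox.

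**Figure D3:**
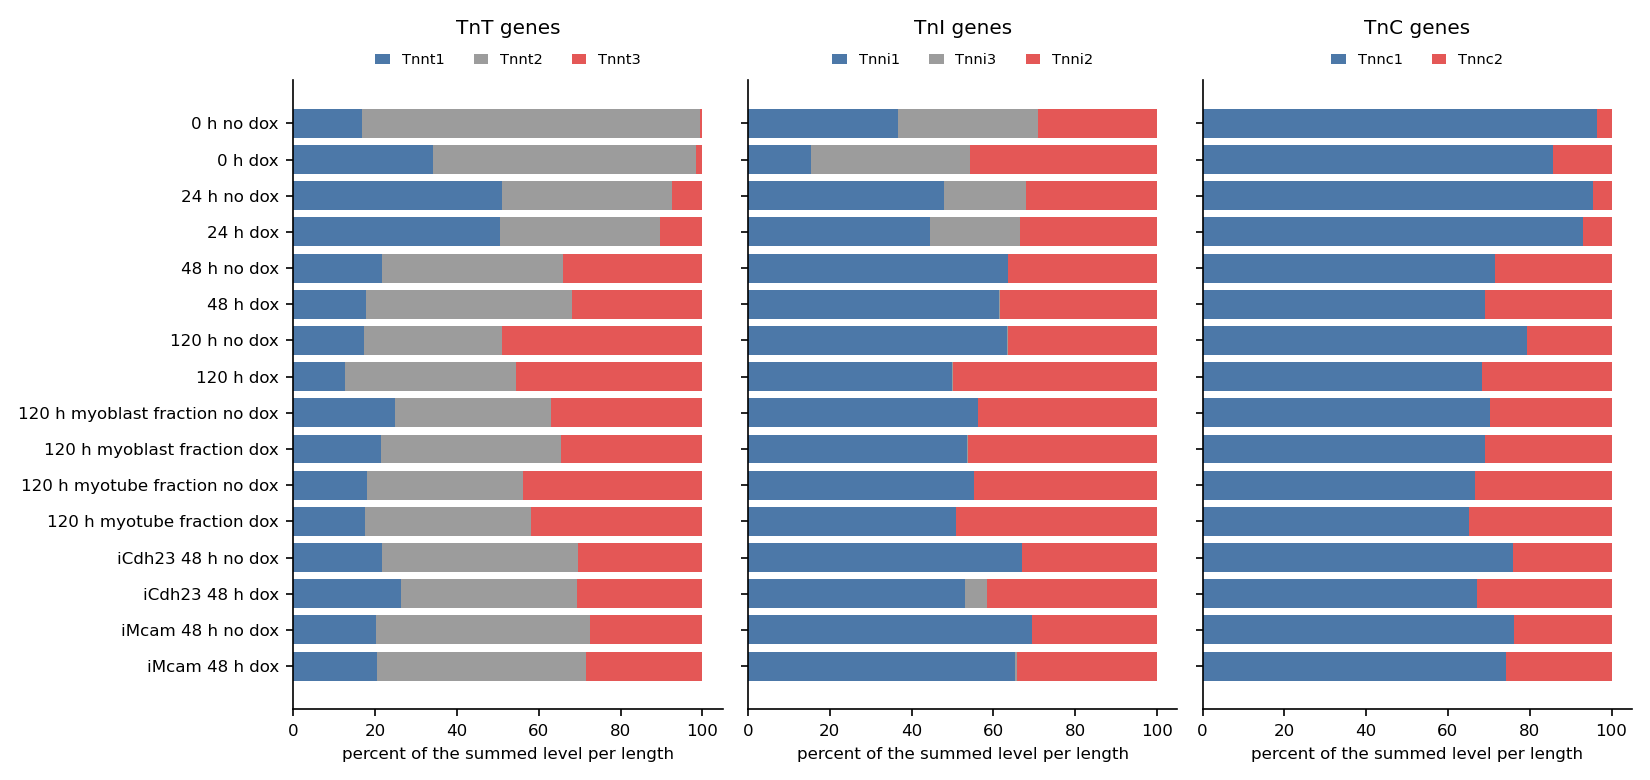
Share of each paralog in its subunit per transcript length (percent, mean of the libraries) for TnT, TnI and TnC in the 16 groups. Cardiac Tnnt2 fills most of TnT at 0 h and fast Tnnt3 is the largest TnT in the 120 h whole cultures, while Tnni3 is visible in TnI at 0 and 24 h and in iCdh23 with dox.

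As ratios, slow to fast TnI (Tnni1 to Tnni2) was 1.74 (2.11, 1.68 and 1.5 in replicates 1 to 3, the order of their transcript length) without and 1.0 (0.985 to 1.02) with dox at 120 h, and Tnnc1 to Tnnc2 was 3.84 (3.50 to 4.24) without and 2.16 (2.04 to 2.22) with dox. The ranges did not overlap, and the same held at 48 h with smaller gaps, at 1.74 against 1.60 and at 2.49 against 2.24. Tnnt2 to Tnni1, of different subunits, pairs members with a small and a large dox effect at 120 h, so a wide change there follows from the pairing. It went from 0.750 (0.528 to 0.992) to 1.91 (1.83 to 2.08). With 3 libraries against 3, an exact two-sided permutation test of a ratio cannot go below p = 0.1, and over the 40 ratio tests made the smallest adjusted p was 0.235, so no ratio passes a threshold here. TnI per TnT was 0.693 at 48 h without dox and 0.587 with it, and 0.725 and 0.439 at 120 h.

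**Figure D4:**
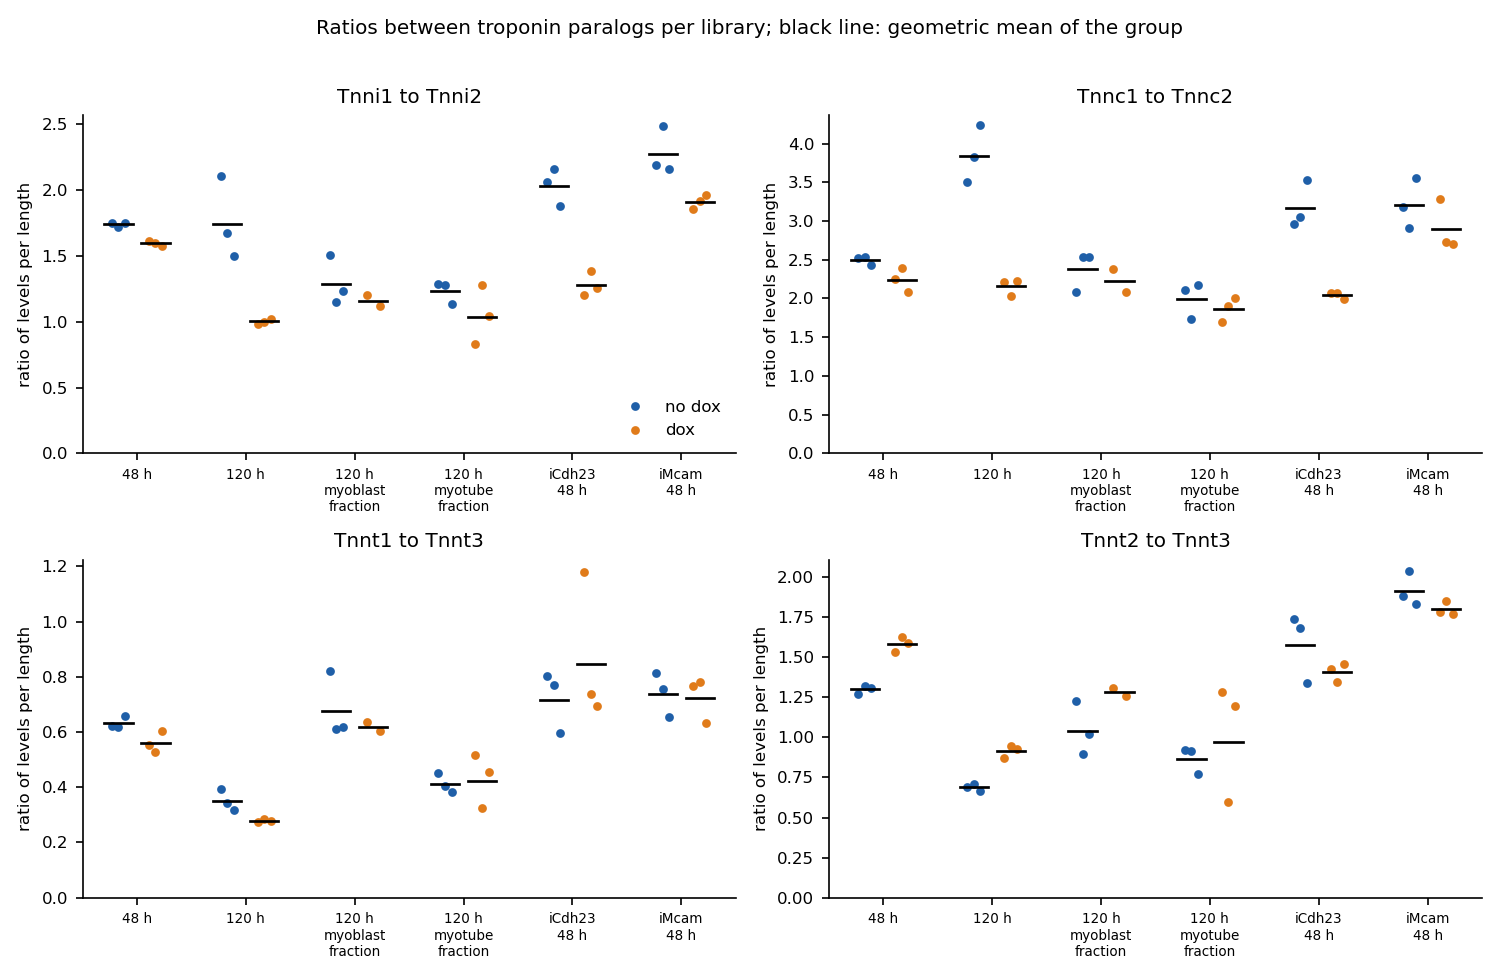
Ratios of slow to fast TnI, of Tnnc1 to Tnnc2, and of slow and cardiac to fast TnT (levels per length, linear axis from 0), 1 point a library and black lines for geometric means, for the groups from 48 h on. In the panels of Tnni1 to Tnni2 and Tnnc1 to Tnnc2 the dox libraries of whole iMyoD1 cultures at 120 h and of iCdh23 lie below all their controls.

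Filtering the 120 h cultures gave a retentate richer in troponin RNA, with a wide spread between replicates. Without dox the 8 genes summed to 9486 CPM ± 2676 (n = 3) in the myotube-enriched and 4170 CPM ± 1559 in the myoblast-enriched fraction. Fast Tnnt3 read 1315, 1903 and 2616 CPM in the former and 413, 1026 and 707 CPM in the latter. Cardiac Tnnt2 read 1274, 1827 and 2106 CPM against 533, 963 and 755 CPM, and slow Tnni1 read 1081, 1575 and 1889 CPM against 425, 866 and 694 CPM. All 3 were higher in the retentate of the same replicate in 3 of 3 replicates.

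In edgeR without pairing, 0 of 8 members were called higher, beside 0.57% of all genes, although 7 had an unadjusted p under 0.05, beside 16.1%, and DESeq2 called 5 higher, beside 2.83%. Same-numbered fractions deviated together, so the replicate number was also used as a block, and then 6 of 8 were called higher, beside 2.3% of all genes. The blocked log2 fold changes were 1.51 for Tnnt3 (adjusted p = 0.0202), 1.34 for Tnnc2 (0.00982), 1.29 for Tnni2 (0.0259), 1.24 for Tnnt2 (0.0171), 1.24 for Tnni1 (0.0178) and 1.09 for Tnnc1 (0.0264). Slow Tnnt1 was 0.83 (adjusted p = 0.0719), and Tnni3 was −0.08 in the unblocked fit. The share of slow to fast TnT (Tnnt1 to Tnnt3 per length) was 0.412 (0.381 to 0.453) in the myotube-enriched and 0.676 (0.611 to 0.820) in the myoblast-enriched fraction, without overlap (exact permutation p = 0.1, the smallest possible). The myoblast-enriched fraction was not free of myotube RNA: its myotube markers summed to 4047 to 5684 CPM, against 9371 to 12029.5 CPM in the retentate.

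With dox the 3 retentates disagreed. Tnnt2 read 3379.6, 1584 and 775 CPM, and Tnnt3 read 2495, 2545 and 616 CPM. Replicate 3 was lowest for 7 of the 7 abundant genes, which spread 4.13-fold to 6.27-fold over the 3 libraries, while their shares of the total of these genes spread only 1.09-fold to 1.67-fold. The 2 flow-throughs read 816 and 739 CPM for Tnnt2 and 595 and 551 CPM for Tnnt3. No member was called higher in the myotube-enriched over the myoblast-enriched fraction with dox by edgeR, beside 0% of all genes, with 2 members at an unadjusted p under 0.05, beside 1.28% of all genes, and none called by DESeq2. The dox effect was not detectable within either fraction. In edgeR and DESeq2, 0 of 8 were called in the flow-through, beside 3.03% of all genes, and 0 of 8 in the retentate, beside 0%. At an unadjusted p under 0.05 in edgeR stood 0 members in both, beside 3174 of 14249 genes in the flow-through and 79 of 14112 in the retentate. No difference in a member's dox effect between the fractions was detectable at this spread (0% of all genes at an adjusted p under 0.05, and 0 members in DESeq2). At an unadjusted p under 0.05 stood 0 members, beside 218 of 15008 genes. Log2 fold changes with dox ran from −0.50 (Tnni1) to 0.16 (Tnni3) in the flow-through and from −0.13 (Tnni1) to 0.34 (Tnni3) in the retentate, with the other 6 members between them, and their differences ran from 0.09 (Tnnt2) to 0.53 (Tnni2). Tnnt2 to Tnni1, which pairs members with a small and a large dox effect in whole cultures at 120 h, was 1.58 (1.54 to 1.62) with and 1.07 (1.02 to 1.17) without dox in the flow-through. In the retentate it was 1.35 (0.770 to 1.84) with and 1.07 (1.04 to 1.09) without dox, which overlapped. Slow to fast TnI was 1.16 with and 1.29 without dox in the flow-through, and 1.04 and 1.23 in the retentate. Tnnc1 to Tnnc2 was 2.23 and 2.38 in the flow-through, and 1.86 and 2.0 in the retentate. For both ratios the libraries overlapped in each fraction, as they did for slow to fast TnT. Tnnt2 to Tnnt3, at 1.28 with and 1.04 without dox in the flow-through, did not overlap there.

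In iCdh23, the 8 genes together took 3042 CPM ± 1191 without and 38.6 CPM ± 25.9 with dox at 48 h (SD, n = 3). All 8 members were called lower, beside 17% of all genes, and the median log2 fold change was −6.15. Slow Tnni1 read 343, 540.4 and 844 CPM without and 2.25, 3.41 and 8.31 CPM with dox, a 123-fold drop (−6.94 ± 0.60, adjusted p = 5.48e-05). Tnnc1 fell 86.7-fold, from 463, 631 and 1035 CPM to 3.96, 6.25 and 14.2 CPM, and Tnni2 fell 77.3-fold, from 120.1, 179 and 324 CPM to 1.42, 1.82 and 4.74 CPM. The TnT genes fell by similar factors. Cardiac Tnnt2 went from 489, 623 and 894 CPM to 4.34, 6.25 and 16.6 CPM (73.3-fold), fast Tnnt3 from 263, 349 and 629 CPM to 2.88, 4.37 and 10.7 CPM (68.9-fold), and slow Tnnt1 from 185, 236 and 335 CPM to 2.63, 2.81 and 6.21 CPM (64.6-fold). Fast Tnnc2 fell 53.7-fold and Tnni3 3.39-fold (−1.76 ± 0.43, adjusted p = 0.00814). Replicate 3 was highest for 7 of 7 abundant genes in both arms, and without dox replicate 3 the log2 fold changes were −7.66 for Tnni1, −7.12 for Tnnc1, −6.99 for Tnni2, −6.98 for Tnnt2, −6.83 for Tnnt3 and −6.46 for Tnnc2.

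In iMcam the 8 genes together took 2213 CPM ± 1204 without and 306 CPM ± 220.4 with dox. All 7 tested members were called lower, beside 9.85% of all genes, with log2 fold changes of −3.03 ± 0.60 for Tnni1, −2.88 ± 0.56 for Tnnc1, −2.82 ± 0.58 for Tnni2, −2.78 ± 0.45 for Tnnt1, −2.77 ± 0.54 for Tnnt2, −2.69 ± 0.56 for Tnnt3 and −2.64 ± 0.55 for Tnnc2 (adjusted p from 0.0023 to 0.00624). Tnnt2 read 355, 480.0 and 930.0 CPM without and 47.6, 51.6 and 153 CPM with dox, and Tnni1 read 236, 300.3 and 663 CPM without and 25.3, 27.3 and 90.6 CPM with dox. The groups did not overlap, though replicate 3 was highest in each arm. Without dox replicate 3 the values ran from −3.88 for Tnni1 to −3.38 for Tnnt1, with Tnnt2 at −3.52, and without no-dox replicate 3 that of Tnni2 was −2.20. Tnni3 held 1 to 8 counts a library (means of 0.381 and 0.159 CPM) and was not tested. Slow to fast TnI was 2.28 without and 1.91 with dox in iMcam, and 2.03 without and 1.28 with dox in iCdh23, each without overlap.

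The dox effects of the 2 adhesion lines differed for 7 of 7 members tested, beside 10.6% of all genes. The log2 fold change in iCdh23 was lower by 3.08 (Tnnc2) to 3.89 (Tnni1), with adjusted p from 0.00951 to 0.0279. Single libraries mattered: 2 of 7 were significant without iCdh23 dox replicate 2 (beside 6.2% of all genes), 3 without iMcam no-dox replicate 2 (7.35%), and 4 without iCdh23 dox replicate 1 (8.2%), iMcam no-dox replicate 1 (8.4%) or iMcam dox replicate 3 (7.56%). The differences themselves ran from −3.05 to −2.25 without iMcam dox replicate 3, from −4.61 to −3.79 for 6 members without iCdh23 dox replicate 3, and were −4.07 for Tnni2 and −4.13 for Tnnc1 without iMcam no-dox replicate 3. Compared with iMyoD1 at 48 h, which came in another table, so that line and table cannot be told apart, the effect in iCdh23 was stronger for 8 of 8 members, beside 35.8% of all genes, and reached −6.31 for Tnni1 and −5.35 for Tnnc2 without iCdh23 dox replicate 3 (−5.57 and −4.63 with it). For iMcam, edgeR called none of 8, beside 6.41% of all genes, although 8 had an unadjusted p under 0.05, beside 23.6% (differences from −1.90 to −1.44, adjusted p from 0.0643 to 0.137), DESeq2 called none, and with the replicate block 4 passed (Tnnt1, Tnnt2, Tnnc1 and Tnnc2), beside 5.81% of all genes. Without iMcam dox replicate 3, 7 passed, beside 7.27%, with differences from −2.67 to −2.05.

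Other cell states moved with dox in both lines. In iCdh23 the myotube markers summed to 3924 to 6283 CPM without and 219.6 to 270.1 CPM with dox (6 of 6 called lower), and the proliferation markers to 699 to 991 CPM without and 97.1 to 129 CPM with dox (5 of 6 called lower). In iMcam they went from 2806 to 6337 CPM to 563 to 1379.9 CPM (6 of 6) and from 619 to 735 CPM to 135 to 188 CPM (4 of 6). Their part in the troponin drop was not tested.

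Splicing of TnT was read from the shares that salmon gave to annotated transcripts with and without an exon, which near-identical transcripts make uncertain, so values are given by library without a test. The 39-base exon of Tnnt3 was in 89.7%, 79.7% and 74.4% of spanning transcripts at 120 h without dox and in 63.8%, 66.8% and 63.0% with it, while at 48 h the means were 81.6% and 77.2%. The 15-base exon of Tnnt3 printed above was in 99.0%, 91.8% and 87.1% without and in 72.1%, 75.5% and 69.5% with dox at 120 h, and its mean was at least 97.9% in each other group with enough counts. Another 15-base exon of the gene (chr7:142504250-142504264) read 59.1%, 49.8% and 47.3% without and 51.6%, 53.4% and 52.5% with dox at 120 h, which overlapped, and an 18-base exon (chr7:142502740-142502757) read 97.4%, 90.4% and 85.9% without and 67.1%, 71.2% and 63.9% with dox, which did not. In the fractions of 120 h the 39-base exon averaged 91.0% and 90.1% in the flow-through and 91.6% and 89.6% in the retentate, without and with dox. The transcript behind it was Tnnt3-204, which took 6.97% ± 5.92 of Tnnt3 at 120 h without and 26.5% ± 2.98 with dox.

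The 33-base exon of Tnnt1 averaged 34.2% ± 6.9 at 0 h, 52.5% ± 0.21 at 48 h and 68.7% ± 9.1 in the retentate without dox. At 120 h it read 57.8%, 44.6% and 35.2% in whole cultures without and 26.9%, 40.5% and 37.7% with dox, which overlapped. The 30-base exon of Tnnt2 was in nearly every transcript at 0 h (99.3% ± 1.25) and in 90.0% ± 1.5 at 48 h, 75.3% ± 4.7 at 120 h and 67.2% ± 8.5 in the retentate, all without dox. Values at 24 h are not given for these exons, so no steady change with time can be read from them. The order of the 3 control libraries of 120 h in median relative transcript length is also that of their Tnnt3 and Tnnt1 exon shares, the dox libraries lay at 99.3% to 99.6%, and the part of this was not tested.

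Cardiac TnI stayed low in every group. Tnni3 ranged from 0.0510 CPM (1 count) in iMcam with dox to 4.12 CPM in the myoblast-enriched fraction, and all 15 neighbouring groups in its order overlapped. Of 8 cardiomyocyte markers, Tbx5 and Myl7 had at most 3 counts in every library of every group, as did Hcn4 in all groups but the 120 h whole cultures with dox, and only Nkx2-5 and Gata4 exceeded 3 counts in some library of every group. The 8 summed to between 10.9 and 86.6 CPM. Of Tnnt2 and Tnni3, the genes named cardiac alone, Tnnt2 was therefore the abundant one. Tnnc1, which slow skeletal and cardiac muscle share, was abundant too.

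Ordered by mean TMM-scaled CPM, the myotube-enriched groups held the first 2 ranks for 7 of the 8 members. Without TMM factors the 120 h whole culture without dox was at rank 2 for Tnni1, and per length it stood above both retentates for Tnnc1 (4704 against 4015 TPM without and 3634 TPM with dox) and Tnni1 (2443 against 2360.0 and 1871 TPM). In CPM, a group of 0 or 24 h came last for the same 7, Tnni3 being the exception. Of the 15 neighbouring pairs of groups in each order, 8 (Tnnt3, Tnni2), 9 (Tnnt1, Tnnt2) or 10 (Tnni1, Tnnc1, Tnnc2) overlapped in their library ranges. Over the 16 groups, log2 levels of the 7 abundant genes correlated with each other at r = 0.952 to 0.998, and with Tnni3 at r = 0.682 to 0.779, points that share libraries, depth and the same differentiation steps. Among 12085 genes searched, those nearest in this pattern were the fast myosin light chain genes Mylpf (r = 0.996) and Myl1 (0.995) for Tnnt3, tropomyosin Tpm2 (0.991) and the noncoding RNA H19 (0.985) for Tnnt2, and Klhl40 (0.993) and the fetal acetylcholine receptor subunit Chrng (0.992) for Tnnt1. For TnI they were the myosin chaperone Unc45b (0.996) and Mybph (0.995) for Tnni1, the embryonic myosin light chain Myl4 (0.997) and Trim72 (0.996) for Tnni2, and Fxyd1 (0.916) and Tbc1d7 (0.908) for Tnni3. Unc45b and Gm14635 (both 0.996) were nearest to Tnnc1, and Hfe2 and Itgb1bp2 (both 0.994) to Tnnc2.

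Partner genes of troponin were called lower in part. Of 11 thin filament partners (actins, tropomyosins, nebulin, Nrap, tropomodulins and leiomodins) 7 were called lower with dox at 48 h (median −1.3, lowest Nrap at −1.96), 3 at 120 h (−0.22, lowest Lmod3 at −2.09), 9 in iCdh23 (−5.22) and 8 in iMcam (−2.38), beside 8.46%, 8.8%, 17% and 9.85% of all genes in the same order, and none was called higher. The pointed-end capping gene Tmod4 stood highest in each, between 0.15 and 1.13. Of 11 fast fibre genes tested at 120 h, 2 were called higher (Myoz1 highest, at 1.74), beside 7.32% of all genes, and 4 lower (Myh1 lowest, at −2.42), after 9 of 11 lower at 48 h, 11 of 11 in iCdh23 and 7 of 9 in iMcam. Slow fibre genes were called lower in 6 of 9 at 48 h, 3 of 9 at 120 h (Myh7 lowest, at −2.68), 7 of 8 in iCdh23 and 7 of 8 in iMcam. Developmental muscle genes were lower in 2 of 5, 3 of 5, 5 of 5 and 4 of 5 in the same order, with the embryonic myosin heavy chain Myh3 at 0.82 at 120 h. Over all libraries, smooth muscle markers, which myoblasts also make, summed to between 85.0 and 4095 CPM and fibroblast markers to between 9.14 and 1647 CPM.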

How the data were processed

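RNA was polyA-selected, and libraries were made with the NEBNext Ultra II kit. The authors ran nf-core/rnaseq 3.18.0 on the reads and deposited 3 tables of salmon's estimated counts per transcript (12, 23 and 12 libraries, 109617 transcripts). The annotation and strand setting are not given in the sources used here. Of the transcripts, 98.72% had a length in GENCODE vM21.

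Estimated counts were summed per gene and rounded. Each comparison used the groups compared, edgeR 4.0.16 in R 4.3.3 (filterByExpr, TMM, quasi-likelihood test, Benjamini-Hochberg adjustment over all genes), and a standard error from the F statistic. Levels per length divide each transcript's count by its length. Exon use needed at least 50 counts of the gene in every library. Nearest genes had at least 5 CPM in 1 group, on log2(CPM + 0.5).

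By the rule for named genes, all 8 members are named in every comparison, singly or by the range they span. Of the lists (thin filament partners, fast, slow and developmental genes, and markers of proliferating myoblasts, myotubes, cardiomyocytes, smooth muscle and fibroblasts), counts and at most the extreme genes are given. Members and lists were chosen with earlier results of these data known. Same-numbered libraries deviated together in every pair for the fractions without dox (correlation 0.154 to 0.487), iMcam (0.336 to 0.504) and iCdh23 (0.107 to 0.257). The fits were tested on simulated data, where only a minority of the changed genes was recovered for the difference of dox effects between the fractions.

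Results were also computed with no low-count filter, with RLE normalization, with DESeq2 1.42.0, with all groups in 1 fit, with the replicate block, with no fold threshold and with each library left out, and for ratios and nearest genes other lengths and a pseudocount of 5.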

Additional observations from a re-analysis of the deposited data

Results flagged for a closer look

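The dox effect on 6 troponin genes differed between 48 and 120 h in iMyoD1 by the interaction test in edgeR, beside 34.1% of all genes. For Tnnt1 the significance was lost when some single libraries were left out. The effect on these genes is given next. It was less negative at 120 h for each, by a log2 difference of 0.58 for Tnnt1, 0.90 for Tnnt2, 0.71 for Tnnt3, 0.70 for Tnni2, 0.50 for Tnnc1 and 1.17 for Tnnc2.

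The dox effect in iCdh23 was more negative than in iMcam for 7 genes by the same test, at −3.21 for Tnnt1, −3.41 for Tnnt2, −3.39 for Tnnt3, −3.89 for Tnni1, −3.43 for Tnni2, −3.54 for Tnnc1 and −3.08 for Tnnc2. With 1 library left out at a time, this was significant for 2 to 7 of the genes. Of all genes, 10.6% differed in either direction with every library kept.

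It was also more negative in iCdh23 than in iMyoD1 at 48 h for 8 genes, at −4.65 for Tnnt1, −5.31 for Tnnt2, −4.92 for Tnnt3, −5.57 for Tnni1, −5.02 for Tnni2, −2.24 for Tnni3, −5.15 for Tnnc1 and −4.63 for Tnnc2. Of all genes, 35.8% differed in this comparison. The lines came in separate tables, so line and table cannot be told apart. Without iCdh23 dox replicate 3 these values reached −6.31 for Tnni1 and −6.11 for Tnnt2.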

How the results depend on the processing

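RLE normalization changed no call. For dox at 0 h the count of members called higher (2) was 1 without a low-count filter, 1 in DESeq2, 0 in the fit of all groups and 0 to 2 with 1 library left out, and without the fold threshold 1 was lower. At 24 h 1 was higher without the fold threshold, and 0 to 1 with a library left out. Without the fold threshold, 5 were lower with dox at 120 h, 2 were lower from 0 to 24 h without dox (1 to 2 with a library left out), 1 was higher and 3 lower from 48 to 120 h without dox, and 5 were higher from 48 to 120 h with dox. From 0 to 24 h with dox, 2 members were called higher, 0 in DESeq2, 0 in the fit of all groups and 1 to 2 with a library left out. Between the fractions without dox, 0 were called higher, 4 without a low-count filter, 6 with the replicate block, 5 in DESeq2 and 2 in the fit of all groups. The difference between iCdh23 and iMcam held for 2 to 7 members with a library left out. That between iMcam and iMyoD1 held for 7 without a low-count filter, 4 with the replicate block and 0 to 7 with a library left out. The block changed no other count of calls by over 1.5 times.

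The fit of all groups, which shares 1 spread between fractions and whole cultures, took 24 member results below significance, among them Tnnt2 and Tnnc2 for dox at 48 h (adjusted p = 0.103 and 0.0622), and at 120 h all but Tnni1. Small effects turned sign: Tnni2 from 48 to 120 h without dox was −0.0054 in that fit (−0.058 to 0.16 with a library left out), and Tnni1 in the difference of dox effects between 120 and 48 h was −0.031 without a low-count filter (−0.18 to 0.27). With a library left out, values also turned for Tnnc1 at 24 h (−0.067 to 0.15), Tnnt2 (−0.012 to 0.087), Tnni3 (−0.61 to 0.062) and Tnnc2 (−0.075 to 0.17) with dox at 120 h, Tnni2 from 0 to 24 h without dox (−0.35 to 0.47), Tnni1 from 48 to 120 h without dox (−0.14 to 0.30), Tnni3 from 48 to 120 h with dox (−0.62 to 0.058) and Tnni3 between the fractions without dox (−0.57 to 0.45). In the fractions, with a library left out, 8 of 8 members turned sign for dox in the retentate (5 with the replicate block), 5 of 8 for dox in the flow-through (2 with the block), 6 of 8 for the difference between these effects (1 with the block) and 1 of 8 for the fractions compared with dox (1 with the block). Other causes were not tested. Of the 40 ratios, 1 moved: the log2 change of Tnnt2 to Tnnt3 at 120 h was 0.41, and 0.49 with the longest transcript or no division by length. With a pseudocount of 5, 7 of the 16 nearest genes were shared. Tnni3 in every group, at 1 to 117 counts a library, and Tnnt3, Tnni1, Tnni2 and Tnnc2 at 0 and 24 h rest on few counts.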
